A study of Homo sapiens with 8 samples.

Results

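The 10 genes described here are an exchange factor that activates RAS, RASGRP3, and 9 genes that extracellular signal-regulated kinase (ERK) signaling is known to switch on, of which most act back on the pathway: DUSP4, DUSP5, DUSP6, SPRY1, SPRY2, SPRY4, SPRED1, SPRED2 and ETV4. They were chosen by name, out of 20090 protein-coding genes with a model on chromosomes 1 to 22 and X. At each gene, the peaks of 8 CUT&Tag libraries were collected within 2 kb of the transcription start site (TSS), in the gene body and up to 50 kb on either side. HCT15 is an established human colorectal cancer line. HCT15-Pa is its parental form, labelled as treated with DMSO, the solvent. HCT15-FR is a form resistant to 5-fluorouracil (5-FU), a drug that blocks thymidylate synthesis, and is labelled as treated with 20 μg/mL 5-FU, although the methods describe a drug-free period for the resistant cells before experiments. Each line had 2 libraries for succinylation of histone H3 at lysine 23 (H3K23su) and 2 for acetylation at lysine 27 (H3K27ac). Nothing states that libraries of 1 line came from separate cultures, so the spread between them may be technical, and resistance, drug and passage history cannot be told apart.

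RAS proteins are switches that are on when they hold GTP. Exchange factors load GTP, and active RAS then starts the kinase chain of RAF, MEK and ERK. ERK raises transcription of its own brakes: dual-specificity phosphatases remove phosphate from ERK, Sprouty proteins interfere with signaling from receptor tyrosine kinases to RAS, and SPRED proteins bring the RAS inactivator neurofibromin to the membrane. The same output includes ETV4, a transcription factor of the PEA3 group of the ETS family. H3K27ac marks active promoters and enhancers, whereas H3K23su carries a larger, negatively charged acyl group on a neighbouring stretch of the H3 tail. CUT&Tag directs a transposase to the modified histone with an antibody, so that the sequenced fragments show where the modification lies.

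The lists held between 65364 and 68365 peaks for H3K23su and between 70600 and 76676 for H3K27ac. Each peak carries the −log10 of its P value as a score, and no read counts, so the depth behind a peak is not known from the lists and a missing peak was only not detectable at the threshold used. The main measure was therefore the covered length, the number of bases of a locus that lie inside peaks. Over the whole lists, peaks covered 33.3 ± 0.368 Mb in HCT15-Pa and 39.7 ± 0.467 Mb in HCT15-FR for H3K23su (mean ± SD, n = 2), a ratio of 1.19. For H3K27ac they covered 39.2 ± 0.515 and 46.5 ± 0.220 Mb, also a ratio of 1.19. Mean peak width was 507 and 505 bp in HCT15-Pa and 586 and 581 bp in HCT15-FR for H3K23su. For H3K27ac it was 550 and 550 bp against 627 and 608 bp. The greater covered length of the HCT15-FR lists can enter every covered length below. Its part was not tested beyond the scaled values beside the results and the alternatives in the closing section. Of 8 colorectal epithelial markers, 5 had an H3K23su peak and 7 an H3K27ac peak within 2 kb of the TSS in all 4 libraries. CDX1 had one in 2 libraries of each mark. For H3K23su, CDX2 had one in 1 library and CDH17 in 2. Of 7 markers of leukocytes, endothelium and fibroblasts, 4 had no such peak in any library of either mark, namely PTPRC, CD3E, COL1A2 and DCN. COL1A1 had one in 3 H3K23su and 4 H3K27ac libraries, CD79A in 2 and 1, and CDH5 in 1 and 1.

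The sequences that follow come from places at these genes where the lines differed. Apart from the RASGRP3 promoter, they either changed presence in both marks or hold an AP-1 match, and were not chosen by the strength of their peaks. The RASGRP3 promoter was added after its peak scores were seen. They are 200 bases each from the GRCh37 (hg19) genome, on the plus strand and in lower case, with any exact match to 6 motifs in capitals. The motifs were AP-1 (TGACTCA), ETS (CCGGAAGT), FOX (TGTTTAC), the GATA family (AGATAA), TEAD (ACATTCC) and KLF (GGGTGTGG), searched on both strands. The first line is the stretch just upstream of the RASGRP3 start sites, the promoter whose peak moved up the ranking in both marks. The next 4 lines are the centres of the H3K23su regions that changed presence together with H3K27ac, of which 3 were listed in HCT15-FR alone and 1 in HCT15-Pa alone. The last 2 lines are H3K23su regions listed in HCT15-FR alone that hold an AP-1 match, which reads TGAGTCA on this strand.
RASGRP3 promoter, chr2:33701490-33701689: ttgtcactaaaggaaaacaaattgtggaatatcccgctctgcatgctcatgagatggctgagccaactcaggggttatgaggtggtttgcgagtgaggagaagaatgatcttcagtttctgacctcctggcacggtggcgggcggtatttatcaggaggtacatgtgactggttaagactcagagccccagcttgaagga
SPRED1, 35.3 kb upstream, HCT15-FR only, chr15:38509603-38509802: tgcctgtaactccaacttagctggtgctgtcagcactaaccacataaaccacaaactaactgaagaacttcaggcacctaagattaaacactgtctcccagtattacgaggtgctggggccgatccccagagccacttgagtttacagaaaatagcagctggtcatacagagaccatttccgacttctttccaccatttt
DUSP6, 26.5 kb downstream of the TSS, HCT15-FR only, chr12:89719674-89719873: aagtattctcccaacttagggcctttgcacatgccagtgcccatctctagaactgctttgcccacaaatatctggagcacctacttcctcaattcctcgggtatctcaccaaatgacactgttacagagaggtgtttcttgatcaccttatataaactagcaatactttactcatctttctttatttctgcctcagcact
SPRY4, coding exon, HCT15-FR only, chr5:141694327-141694526: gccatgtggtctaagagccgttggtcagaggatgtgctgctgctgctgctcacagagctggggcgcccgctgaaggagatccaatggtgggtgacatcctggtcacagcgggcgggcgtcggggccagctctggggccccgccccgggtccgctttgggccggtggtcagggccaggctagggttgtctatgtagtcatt
DUSP6, 37.7 kb upstream, HCT15-Pa only, chr12:89783922-89784121: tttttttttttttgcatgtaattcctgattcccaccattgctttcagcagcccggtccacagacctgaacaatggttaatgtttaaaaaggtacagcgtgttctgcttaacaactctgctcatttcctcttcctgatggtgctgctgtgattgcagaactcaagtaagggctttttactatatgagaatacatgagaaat
SPRY4, 35.9 kb upstream, HCT15-FR only with AP-1 match, chr5:141740380-141740579: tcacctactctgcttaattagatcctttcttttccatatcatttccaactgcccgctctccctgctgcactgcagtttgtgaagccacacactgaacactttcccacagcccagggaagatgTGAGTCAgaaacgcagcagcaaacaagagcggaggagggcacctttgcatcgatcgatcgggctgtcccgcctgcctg
SPRED2 locus, beyond the 3′ end of the gene, HCT15-FR only with AP-1 match, chr2:65528151-65528350: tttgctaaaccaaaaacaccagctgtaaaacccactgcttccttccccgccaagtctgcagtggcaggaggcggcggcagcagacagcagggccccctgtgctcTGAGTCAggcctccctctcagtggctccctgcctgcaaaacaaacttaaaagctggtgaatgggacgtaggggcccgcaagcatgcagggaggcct

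Summed over the 10 loci, H3K23su peaks covered 40.1 and 36.7 kb in the HCT15-Pa libraries and 64.6 and 59.3 kb in the HCT15-FR libraries. The means were 38.4 ± 2.39 and 62.0 ± 3.76 kb (SD, n = 2), a difference of 23.58 kb and a ratio of 1.61. H3K27ac peaks covered 50.0 and 52.1 kb in HCT15-Pa against 72.7 and 70.9 kb in HCT15-FR, with means of 51.1 ± 1.48 and 71.8 ± 1.23 kb, a difference of 20.71 kb and a ratio of 1.41. The lines did not overlap for either mark. The whole lists had a ratio of 1.19 for each mark. Scaled to the list total, the differences were 14.84 kb for H3K23su and 10.29 kb for H3K27ac. The two-sided exact permutation test gave p = 0.333 for each, which is the smallest value that 2 libraries against 2 can give, so this test cannot reach 0.05 for any comparison of covered length here. These are bulk libraries, so more cells with the modification and more modification per cell cannot be told apart.

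H3K23su covered more of the locus in both HCT15-FR libraries than in both HCT15-Pa libraries at 7 of the 10 genes, DUSP4, DUSP5, SPRY1, SPRY4, SPRED1, SPRED2 and ETV4, and less at 1, SPRY2. Over the 18622 protein-coding genes with any H3K23su peak at the locus, 52.0% were higher and 13.1% lower in the same sense. For H3K27ac, 8 genes were higher, the same 7 and RASGRP3, and SPRY2 was again lower, beside 50.5% and 13.5% of 19241 genes. With more than 1 gene in 2 higher in the background, these counts by themselves say little about the 10 genes. Scaled to the list total, 7 genes were higher for H3K23su and 6 for H3K27ac. For H3K27ac DUSP4 then overlapped and RASGRP3 was lower, and SPRY2 stayed lower in both marks. The shares of all genes after scaling were not computed. The median ratio of HCT15-FR to HCT15-Pa was 1.59 for H3K23su and 1.34 for H3K27ac, beside 1.21 and 1.14 over all protein-coding genes. RASGRP3, DUSP4, DUSP5 and DUSP6 belong to a MAPK gene group that the study drew from genes with raised mRNA near H3K23su gains. Those gains were called in these same libraries, so the direction of these genes is not independent evidence. The study called gains from normalized read signal, a different measure from covered length.

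**Figure D1:**
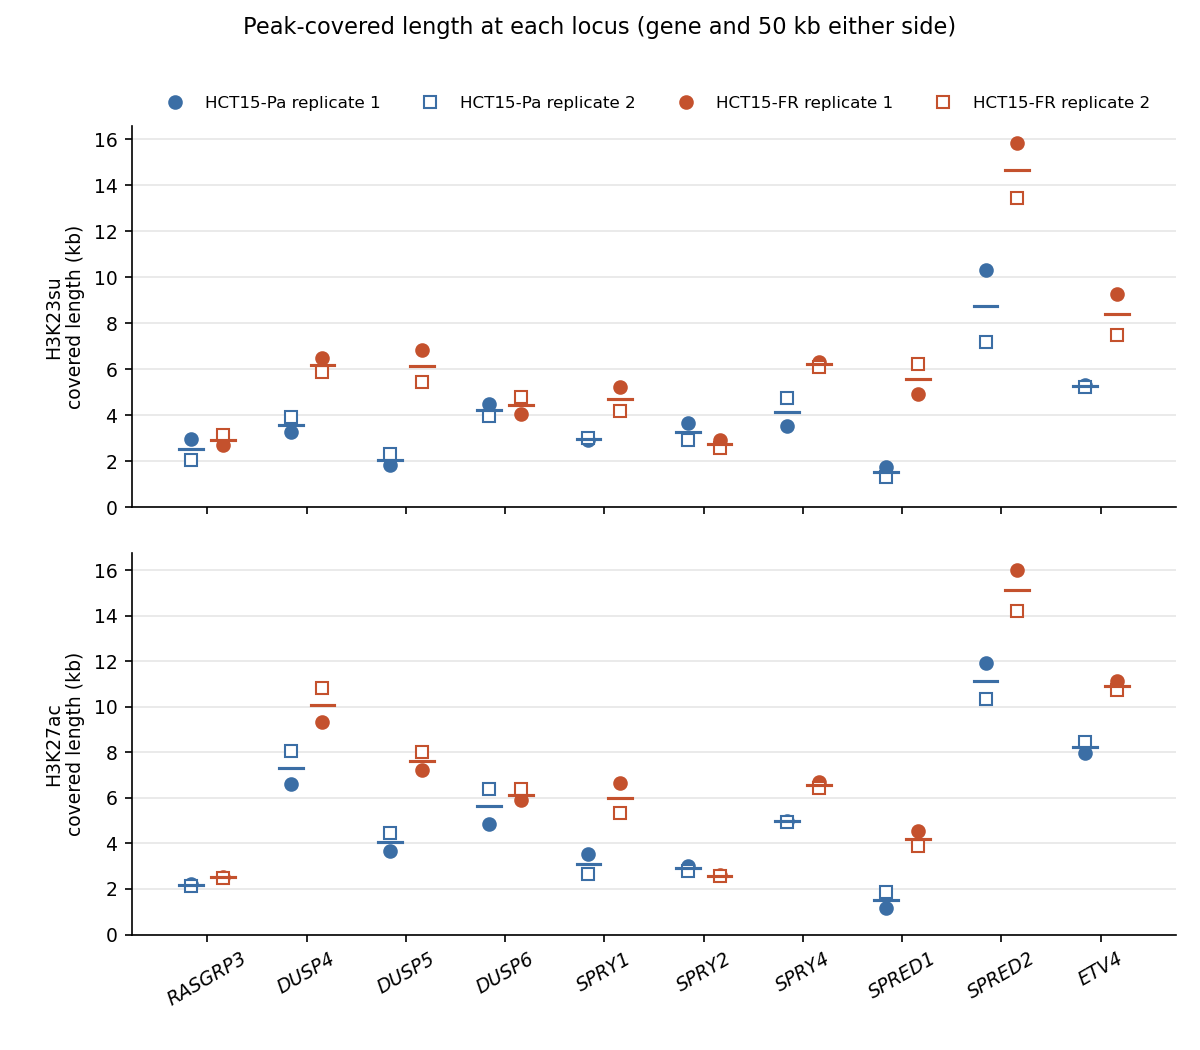
Covered length in kb at each of the 10 loci, with H3K23su above and H3K27ac below, as 1 point per library (blue HCT15-Pa, orange HCT15-FR, filled replicate 1, open replicate 2) and short bars for the means of 2. SPRED1 and DUSP5 show the widest relative separation between lines in H3K23su, SPRY2 is the one gene lower in HCT15-FR in both marks, and the points of DUSP6 overlap in both.

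RASGRP3 (chromosome 2, 33661391 to 33789817, plus strand) encodes a guanine nucleotide exchange factor that is recruited to membranes by diacylglycerol. H3K23su covered 2.96 and 2.08 kb of its locus in HCT15-Pa and 2.69 and 3.14 kb in HCT15-FR, so the lines overlapped. H3K27ac covered 2.21 and 2.13 kb against 2.53 and 2.50 kb, a ratio of 1.16 with no overlap. This small excess was below the list-wide ratio, and scaled to the list total the H3K27ac ratio became 0.98, with both HCT15-FR libraries below both HCT15-Pa libraries. The difference at RASGRP3 lay in the score of its promoter peak. For H3K23su this score was 4.48 and 4.77 in HCT15-Pa and 6.60 and 6.74 in HCT15-FR, and the peak moved from percentiles 54.4 and 63.3 of its list to 83.5 and 84.5. For H3K27ac the score was 6.31 and 7.11 in HCT15-Pa and 14.23 and 10.36 in HCT15-FR, at percentiles 77.7 and 81.6 against 94.6 and 88.1. No other of the 10 genes had a higher percentile in both HCT15-FR libraries for both marks. The share of all protein-coding genes that rose in both marks was not computed, so this does not set RASGRP3 apart. The midpoint of the H3K23su peak region lies 0.4 kb upstream of the canonical TSS. The rest of the locus was sparse, since 6 of its 8 H3K23su regions and 3 of its 5 H3K27ac regions were listed in a single library, and the other shared region of each mark lay in FAM98A. The printed promoter held none of the 6 motifs.

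DUSP4, DUSP5 and DUSP6 encode phosphatases that inactivate ERK, the first and second in the nucleus and the third in the cytoplasm. At DUSP5 (chromosome 10, 112257665 to 112271291, plus strand), H3K23su covered 1.86 and 2.30 kb in HCT15-Pa and 6.86 and 5.46 kb in HCT15-FR, a ratio of 2.96. H3K27ac covered 3.68 and 4.45 kb against 7.21 and 8.01 kb, a ratio of 1.87. Both HCT15-FR libraries were well above both HCT15-Pa libraries, and the ratios stayed at 2.48 and 1.58 after scaling to the list total. The 5 Mb on either side of the locus had ratios of 1.40 and 1.41. The added H3K23su lay at several places around the gene, with regions listed in HCT15-FR alone in an intron 3.4 kb from the TSS, 24.7 kb downstream of the TSS and 47.2 kb downstream, the last nearest to the TSS of SMC3.

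At DUSP4 (chromosome 8, 29190581 to 29208201, minus strand), H3K23su covered 3.28 and 3.91 kb in HCT15-Pa and 6.49 and 5.90 kb in HCT15-FR, a ratio of 1.72. H3K27ac covered 6.61 and 8.05 kb against 9.32 and 10.84 kb, a ratio of 1.37. The lines were separate in both marks, but after scaling to the list total the H3K27ac ratio was 1.16 and the lines overlapped. Within 2 kb of the start site the H3K23su lengths overlapped, at 1.55 and 0.99 kb in HCT15-Pa and 1.17 and 1.38 kb in HCT15-FR.

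At DUSP6 (chromosome 12, 89741012 to 89746278, minus strand), covered length did not separate the lines: H3K23su covered 4.50 and 3.97 kb in HCT15-Pa and 4.08 and 4.79 kb in HCT15-FR, and H3K27ac 4.85 and 6.41 kb against 5.90 and 6.38 kb. The ratios were 1.05 and 1.09, and after scaling to the list total 0.88 and 0.92. The positions of the peaks nevertheless differed. An H3K23su region 26.5 kb downstream of the TSS was listed in both HCT15-FR libraries, with scores of 8.47 and 4.61, and in neither HCT15-Pa library. H3K27ac likewise had a region at this place in both of its HCT15-FR libraries, with scores of 4.50 and 3.61, and in neither of its HCT15-Pa libraries. Upstream, 37.7 kb from the TSS, the opposite held, with H3K23su scores of 4.63 and 5.03 in HCT15-Pa, an overlapping H3K27ac region with scores of 4.65 and 5.00 there, and neither in HCT15-FR. Near the TSS, H3K23su covered 1.06 and 1.14 kb in HCT15-Pa and 2.08 and 1.75 kb in HCT15-FR, and H3K27ac 2.20 and 2.32 kb against 2.89 and 3.04 kb. The promoter therefore held longer peaks in HCT15-FR, while their scores ranked lower: percentiles 70.6 and 78.5 against 40.9 and 63.0 for H3K23su, and 91.6 and 90.1 against 85.9 and 82.5 for H3K27ac. Each HCT15-Pa library had 2 H3K27ac peaks there and each HCT15-FR library 1, so the ranked peaks were of unlike width.

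**Figure D2:**
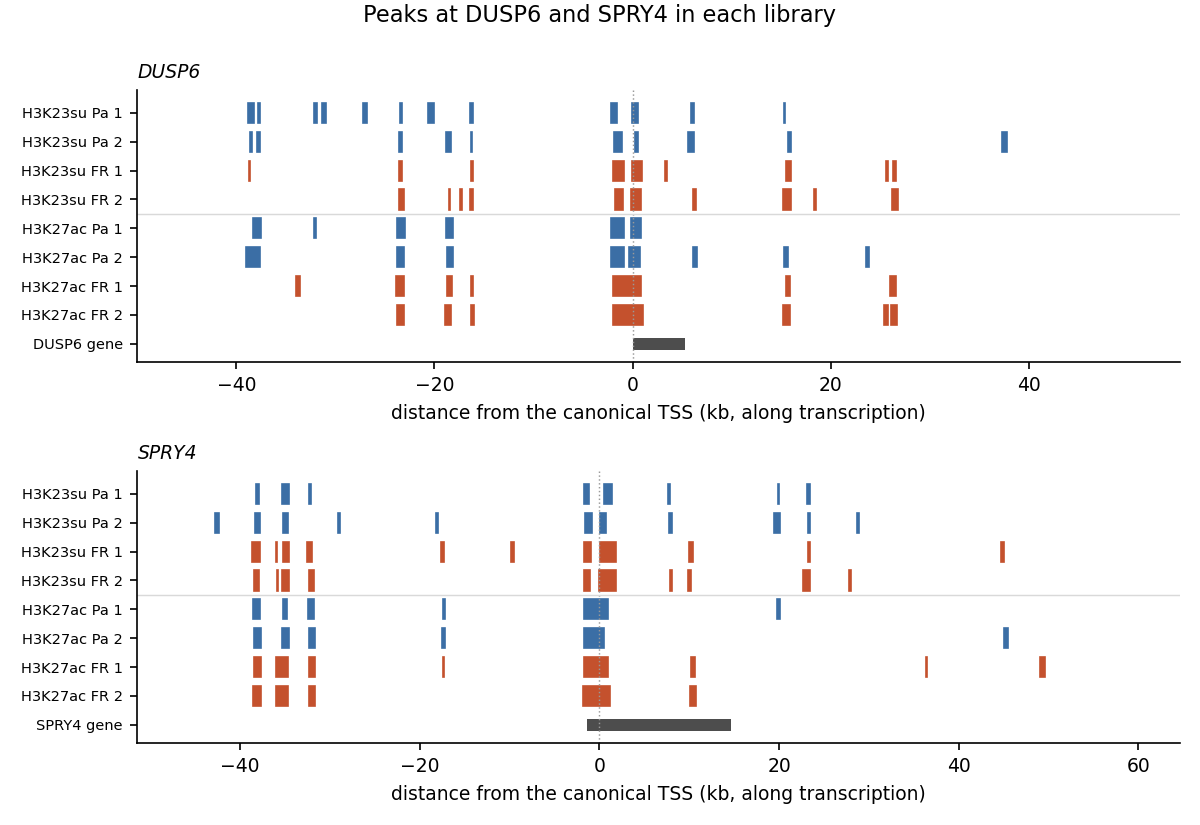
Peaks of all 8 libraries at DUSP6 and SPRY4, drawn to scale against distance from the canonical TSS in kb along the direction of transcription, with H3K23su in the upper 4 rows, H3K27ac in the next 4, the gene as a grey bar, and a thin outline that keeps the narrowest peaks visible. At DUSP6 the peaks 26.5 kb downstream appear in the HCT15-FR rows of both marks and those 37.7 kb upstream in the HCT15-Pa rows, and at SPRY4 the peaks 10.2 kb into the gene appear in the HCT15-FR rows.

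Of the Sprouty genes, SPRY1 (chromosome 4, 124317950 to 124324915, plus strand) had 2.92 and 3.02 kb of H3K23su in HCT15-Pa and 5.25 and 4.17 kb in HCT15-FR, a ratio of 1.59. H3K27ac covered 3.56 and 2.65 kb against 6.67 and 5.32 kb, a ratio of 1.93. The lines were separate in both marks although the surrounding 5 Mb had ratios of 0.89 and 1.06, and scaling to the list total left 1.33 and 1.63. The marks differed from each other 22 kb downstream of the SPRY1 TSS, where H3K27ac was listed in HCT15-FR alone with scores of 3.72 and 5.45. H3K23su was listed there in all 4 libraries, with scores of 3.91 and 4.0 in HCT15-Pa and 5.30 and 4.88 in HCT15-FR. The promoter peak of SPRY1 ranked lower in HCT15-FR in H3K23su, at percentiles 64.9 and 81.0 against 91.4 and 93.1.

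SPRY2 (chromosome 13, 80910111 to 80915261, minus strand) was the exception to the general direction. H3K23su covered 3.65 and 2.94 kb in HCT15-Pa and 2.92 and 2.56 kb in HCT15-FR, a ratio of 0.83, although replicate 2 of HCT15-Pa and replicate 1 of HCT15-FR were nearly equal. H3K27ac covered 3.02 and 2.80 kb against 2.60 and 2.58 kb, a ratio of 0.89. The whole of chromosome 13 had ratios of 0.86 and 0.89, and the 5 Mb on either side 0.89 and 0.87, so SPRY2 was at the level of its surroundings. Scaled to the list total the ratios were 0.70 and 0.75, with HCT15-FR lower without overlap in both marks. Scaled to the covered length of the chromosome, a step added after the data were examined, the ratios were 0.96 and 1.00 and the lines overlapped. Within 10 kb of the gene the direction was the opposite, with differences of 0.17 kb for H3K23su and 0.16 kb for H3K27ac in favour of HCT15-FR. The promoter of SPRY2 nevertheless carried the highest-ranked H3K23su peak of the 10 genes in every library, with scores of 9.32 and 13.17 in HCT15-Pa and 9.53 and 10.07 in HCT15-FR.

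SPRY4 (chromosome 5, 141689992 to 141706020, minus strand) had 3.52 and 4.75 kb of H3K23su in HCT15-Pa and 6.31 and 6.12 kb in HCT15-FR, a ratio of 1.5. H3K27ac covered 5.01 and 4.95 kb against 6.71 and 6.44 kb, a ratio of 1.32. The lines were separate in both marks, also after scaling to the list total, at 1.26 and 1.11. Much of the H3K23su difference lay at the promoter, where 1.43 and 1.47 kb were covered in HCT15-Pa and 2.48 and 2.61 kb in HCT15-FR. A coding exon 10.2 kb from the TSS was listed in HCT15-FR alone in both marks, with H3K23su scores of 4.28 and 4.03 and H3K27ac scores of 3.50 and 3.68, which are low in their lists. The upstream region with the AP-1 match had H3K23su scores of 6.60 and 3.59 in HCT15-FR, and the H3K27ac peaks that overlapped it came from HCT15-FR alone, 1 from each library, while the HCT15-Pa peaks beside it ended short of it.

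SPRED1 (chromosome 15, 38545037 to 38649450, plus strand) had the largest ratio of the 10 genes in both marks. H3K23su covered 1.77 and 1.30 kb in HCT15-Pa and 4.93 and 6.22 kb in HCT15-FR, a ratio of 3.63. H3K27ac covered 1.16 and 1.87 kb against 4.55 and 3.88 kb, a ratio of 2.78. The surrounding 5 Mb had ratios of 1.36 and 1.19, and scaling to the list total left 3.05 and 2.34. In HCT15-Pa nearly all of this length sat at the start site, and H3K27ac had 1 peak at the whole locus in either HCT15-Pa library. In HCT15-FR each library had 4 H3K27ac peaks, and the 3 additional regions lay 35.4, 25.7 and 23 kb upstream, all listed in both HCT15-FR libraries. The most distant of them had H3K27ac scores of 6.42 and 7.63 and coincided with an H3K23su region with scores of 6.94 and 4.10, made of 2 short peaks in replicate 1 of HCT15-FR and 1 long peak in replicate 2. At the other 2, H3K23su was listed in 1 HCT15-FR library each. A second H3K23su region found in HCT15-FR alone lay in an intron 79.9 kb from the TSS, with scores of 3.85 and 4.08 and no H3K27ac peak.

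**Figure D3:**
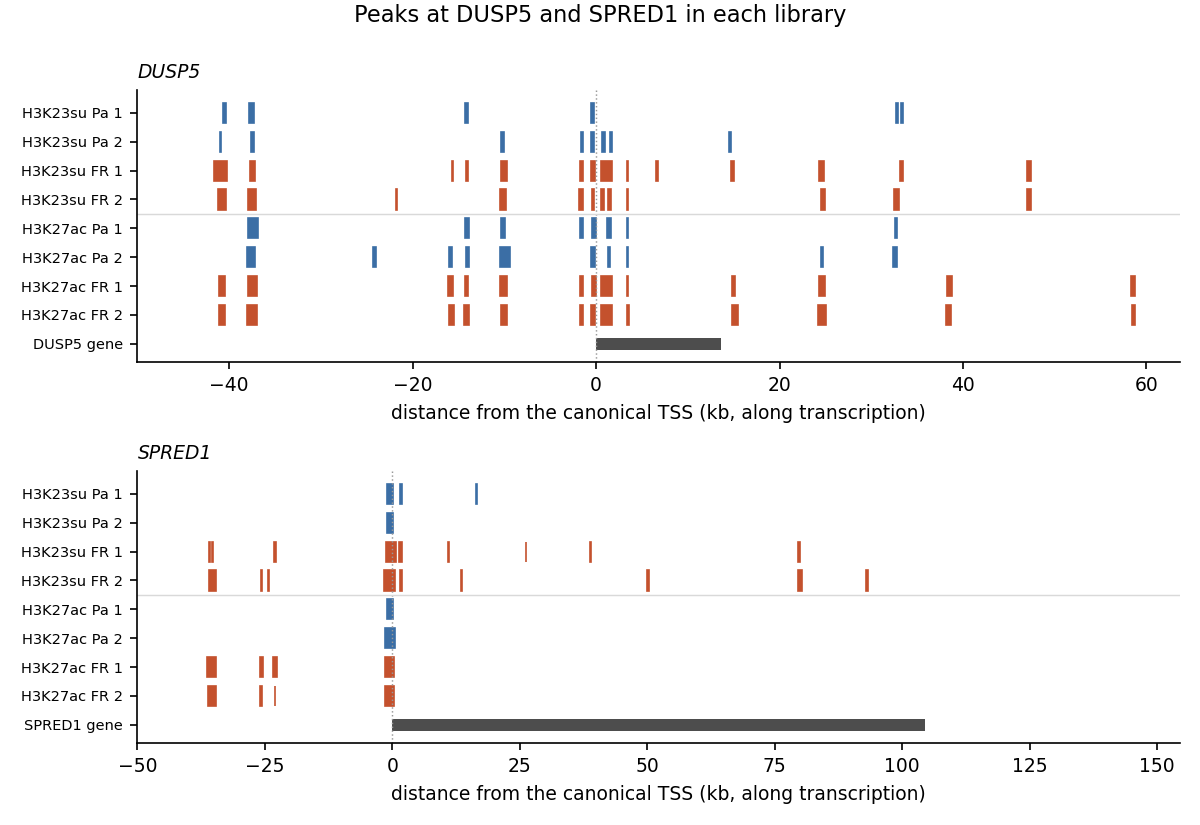
Peaks of all 8 libraries at DUSP5 and SPRED1, drawn to scale against distance from the canonical TSS in kb, with the rows as labelled (Pa 1 and Pa 2 are the HCT15-Pa libraries, FR 1 and FR 2 the HCT15-FR libraries) the gene as a grey bar, and a thin outline that keeps the narrowest peaks visible. The cluster of peaks 23 to 35.4 kb upstream of SPRED1 appears in the HCT15-FR rows alone, and the rows of HCT15-FR at DUSP5 hold more and wider peaks than those of HCT15-Pa.

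SPRED2 (chromosome 2, 65537985 to 65659771, minus strand), the paralog of SPRED1, carried the longest covered length of the 10 genes. H3K23su covered 10.31 and 7.20 kb in HCT15-Pa and 15.85 and 13.46 kb in HCT15-FR, a ratio of 1.67. H3K27ac covered 11.94 and 10.34 kb against 16.02 and 14.23 kb, a ratio of 1.36. The lines were separate in both marks, and scaling to the list total left 1.40 and 1.15. Most of this length lay in the gene body rather than at the promoter, where H3K23su covered 1.88 and 1.55 kb in HCT15-Pa and 1.89 and 1.42 kb in HCT15-FR. The AP-1-bearing region printed above had H3K23su scores of 6.10 and 4.64 in HCT15-FR, with an H3K27ac peak in each HCT15-FR library, and its nearest coding TSS was that of ACTR2.

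ETV4 (chromosome 17, 41605212 to 41656988, minus strand) had 5.32 and 5.24 kb of H3K23su in HCT15-Pa and 9.27 and 7.51 kb in HCT15-FR, a ratio of 1.59. H3K27ac covered 7.99 and 8.48 kb against 11.14 and 10.74 kb, a ratio of 1.33. The lines were separate in both marks, with 1.33 and 1.12 after scaling to the list total, and the locus also holds DHX8, whose model overlaps that of ETV4. The H3K23su promoter peak of ETV4 was weak in HCT15-Pa, with scores of 3.95 and 4.26 at percentiles 32.8 and 46.0. In HCT15-FR its scores were 4.61 and 5.93 at percentiles 51.5 and 76.5. The H3K27ac promoter peak was strong in every library, at percentiles 90.5 and 90.5 in HCT15-Pa and 90.2 and 89.0 in HCT15-FR.

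**Figure D4:**
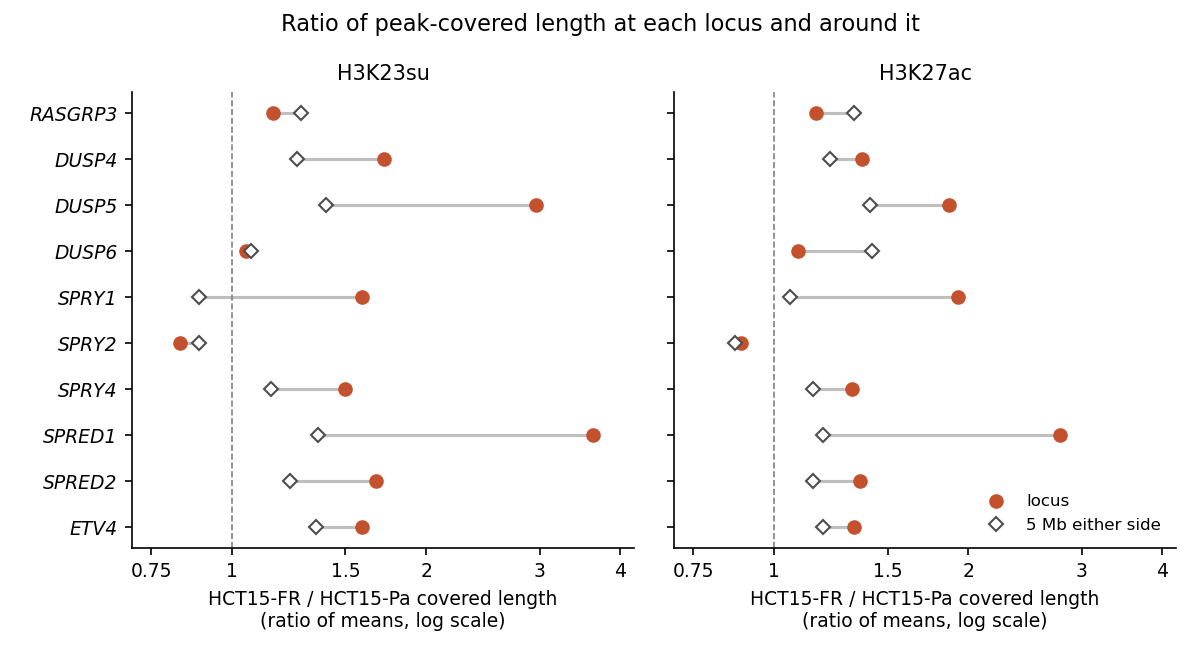
Ratio of the mean covered length in HCT15-FR to that in HCT15-Pa on a log axis, for each locus (filled circles) and for the 5 Mb on either side of it (open diamonds), with a dashed line at 1 and n = 2 libraries per line. The circle lies to the right of the diamond at 7 of 10 genes for H3K23su and at 8 of 10 for H3K27ac. The latter count includes SPRY2, at 0.89 against 0.87. The same share over all protein-coding genes was not computed, so these counts do not set the 10 genes apart. SPRY2 lies with its surroundings below 1.

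All 10 genes had a peak within 2 kb of the TSS in all 4 libraries of H3K23su and in all 4 of H3K27ac, which held for 54.8% and 59.2% of all protein-coding genes. No promoter was therefore gained or lost as a listed peak in the full lists, while among the 50% of peaks with the higher scores the count was 7 genes for H3K23su and 10 for H3K27ac. The length covered within this window was higher in both HCT15-FR libraries at 6 genes for H3K23su, RASGRP3, DUSP5, DUSP6, SPRY4, SPRED1 and ETV4, and lower at 0, beside 45.8% and 6.32% of the genes with a peak there in all 4 libraries. For H3K27ac it was higher at 7, RASGRP3, DUSP4, DUSP5, DUSP6, SPRY2, SPRY4 and ETV4, and lower at 0, beside 35.0% and 10.9%. Over the 10 windows, H3K23su covered 12.3 and 10.9 kb in HCT15-Pa and 17.7 and 16.3 kb in HCT15-FR, and H3K27ac 16.6 and 16.7 kb against 20.2 and 21.2 kb. Summed over these windows, both marks thus covered more in HCT15-FR, with ratios of 1.46 for H3K23su and 1.24 for H3K27ac. The whole lists had 1.19 for each mark. This did not hold at every gene, with ratios of 0.97 and 0.94 at SPRED2. For H3K23su the ratio was 1.00 at DUSP4 and 1.01 at SPRY2.

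The rank of the strongest promoter peak in its own list, which is taken from the score, gave a different picture. Whether the score depends on the width of a peak was not tested, and H3K27ac peaks were called in broad mode. The lists also differ in length and in their scores, with H3K27ac medians of 4.33 and 4.37 in HCT15-Pa and 4.74 and 4.73 in HCT15-FR. For H3K23su the rank was higher in both HCT15-FR libraries at RASGRP3 and ETV4 and lower at DUSP6, SPRY1 and SPRY2. The shares were 28.4% higher and 15.6% lower among genes with a peak there in all 4 libraries. For H3K27ac the rank was higher at RASGRP3 alone and lower at 5 genes, DUSP5, DUSP6, SPRY2, SPRED2 and ETV4, beside 22.1% and 28.2%. At SPRY2 and ETV4 the lower rank was small and went with higher scores. The SPRY2 peak stood at percentiles 95.7 and 94.8 in HCT15-Pa and 93.7 and 94.5 in HCT15-FR, while its scores were 12.69 and 12.26 against 13.45 and 13.89. The ETV4 peak had scores of 9.47 and 9.70 against 11.36 and 10.71. A rank therefore compares a promoter with the other peaks of its library and not the amount of the mark between lines.

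**Figure D5:**
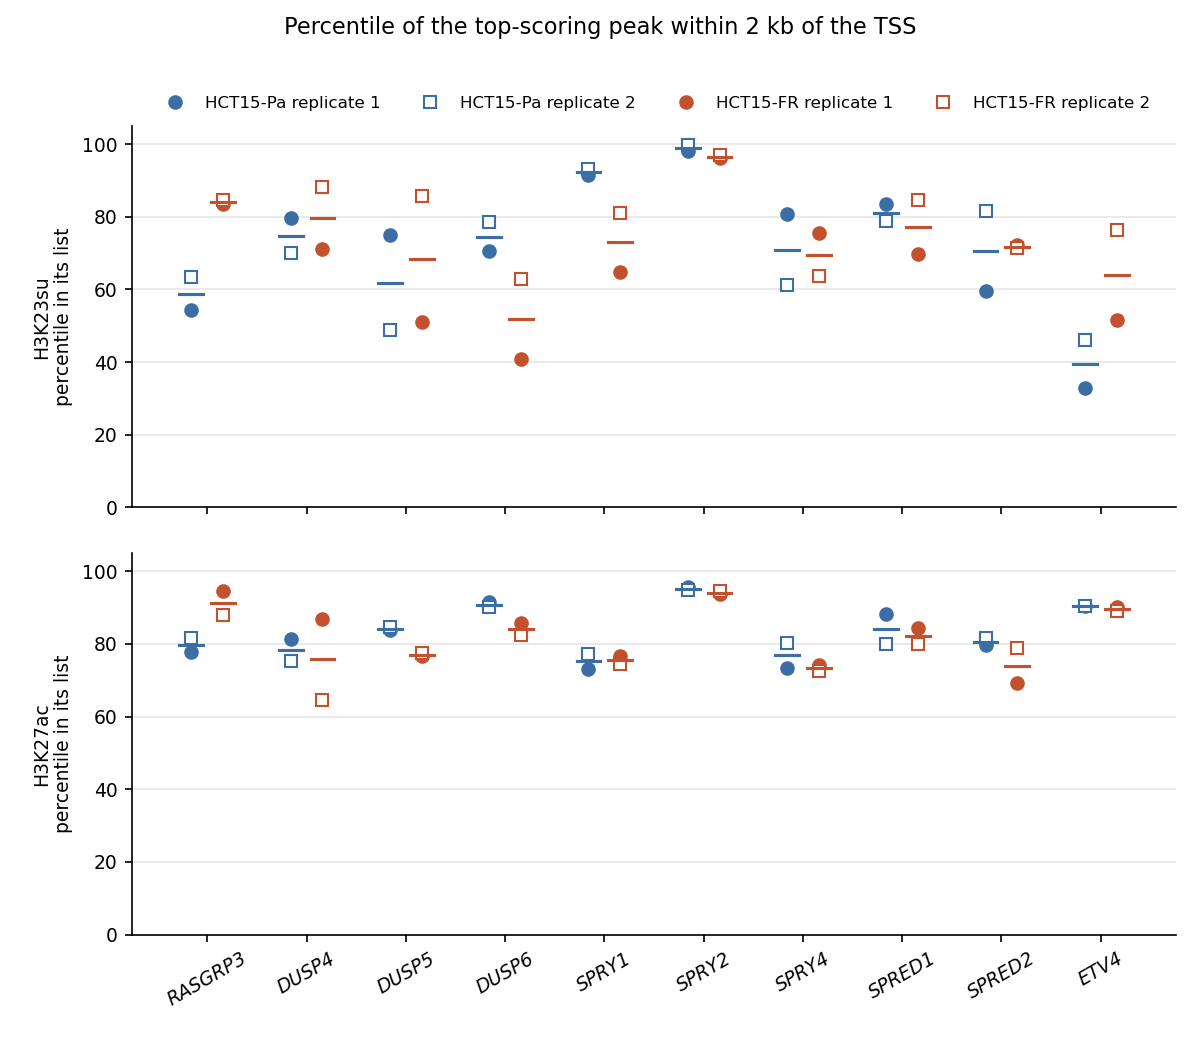
Percentile of the strongest peak within 2 kb of the TSS among all peaks of its own list, for each gene and library, with H3K23su above and H3K27ac below (blue HCT15-Pa, orange HCT15-FR, short bars for the means of 2). RASGRP3 is the one gene higher in HCT15-FR in both marks, and DUSP6 and SPRY2 are lower in both. The shares of all protein-coding genes for both marks together were not computed, so these counts do not set the genes apart.

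To see where the lines differed in the presence of peaks, overlapping or touching peaks of the 4 libraries of a mark were merged into regions. The 10 loci held 153 H3K23su regions, of which 45 were shared by all 4 libraries, 11 were listed in both HCT15-FR libraries and neither of HCT15-Pa, and 4 the reverse. These 11 are 7.19% and these 4 are 2.61% of the regions, beside 7.95% and 5.01% of all 122500 H3K23su regions. Of the 121 H3K27ac regions, 46 were shared, 15 (12.4%) were listed in HCT15-FR alone and 3 (2.48%) in HCT15-Pa alone, beside 9.08% and 4.53% of 133786. Leaving out 1 library makes 1 peak enough for its line, which raises the count of that line by construction. Without replicate 2 of HCT15-Pa there were 20 H3K23su regions of each kind. Without replicate 1 of HCT15-Pa there were 19 in HCT15-FR alone and 14 in HCT15-Pa alone. Without replicate 1 or 2 of HCT15-FR there were 35 and 36 in HCT15-FR alone, and 6 and 7 in HCT15-Pa alone. Such counts therefore cannot show whether the excess in HCT15-FR alone rests on 1 library. At least 1 region of HCT15-FR alone was found at 6 genes for H3K23su and 8 for H3K27ac, where 48.8% and 53.6% of all genes had one, and at least 1 region of HCT15-Pa alone at 4 and 3 genes, where 35.6% and 33.8% had one. No region of either kind lay within 2 kb of a member's TSS. The 11 H3K23su regions of HCT15-FR alone comprised 6 intergenic, 4 intronic and 1 exonic region, and the 15 H3K27ac regions 13 intergenic, 1 intronic and 1 exonic.

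Of the 5 ways a region could be present, those shared by all 4 libraries held the largest part of the additional length, with regions counted whole where they run past a locus. Within the 45 shared H3K23su regions, 29.2 and 27.4 kb were covered in HCT15-Pa and 43.0 and 40.1 kb in HCT15-FR, a difference of 13.3 kb and a ratio of 1.47, whereas the shared regions of the whole genome had a ratio of 1.17. The regions of HCT15-FR alone added 5.2 kb. For H3K27ac, the 46 shared regions covered 44.5 and 43.5 kb against 53.9 and 54.4 kb, a difference of 10.1 kb and a ratio of 1.23 beside 1.12 for all shared regions, and the regions of HCT15-FR alone added 8.2 kb. In gene bodies H3K23su covered 21.3 and 17.2 kb in HCT15-Pa and 35.6 and 29.9 kb in HCT15-FR, a ratio of 1.70, and in the flanks the ratio was 1.52. For H3K27ac the ratios were 1.37 in the bodies and 1.44 in the flanks.

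The overlap between the marks was counted by class of region. Among the 45 shared H3K23su regions, 35 met an H3K27ac region that was likewise shared, beside 80.3% of such regions genome-wide. Of the 11 H3K23su regions of HCT15-FR alone, 3 overlapped an H3K27ac region of HCT15-FR alone, at SPRED1, DUSP6 and SPRY4, where 35.8% did genome-wide. H3K27ac peaks of both HCT15-FR libraries, whatever the state in HCT15-Pa, met 7 of these 11 regions, and 3 of the 11 met no H3K27ac peak. The genome-wide shares for these counts were not computed, so they are a description. At 3 of the 15 H3K27ac regions of HCT15-FR alone, H3K23su was listed in all 4 libraries: 40.8 kb upstream of DUSP5, 16.2 kb upstream of DUSP6 and 22 kb downstream of SPRY1. At these 3 places H3K23su did not separate the lines by presence and H3K27ac did. The weaker of the H3K23su peaks in the 11 regions stood between percentiles 11.6 and 51.7 of its list, so several lie near the limit of detection.

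AP-1 is a dimer of FOS and JUN proteins, some of which ERK signaling induces. An exact AP-1 match within 100 bp of the midpoint was present in 15 of the 153 H3K23su regions (9.80%), beside 6.85% of all H3K23su regions, and in 10 of the 121 H3K27ac regions (8.26%), beside 7.43%. Among the regions of HCT15-FR alone it was present in 2 of 11 and 2 of 15, where 11.8% and 14.0% of all such regions held it. The GATA match was present in 5 of the 15 H3K27ac regions of HCT15-FR alone, beside 13.8%, and in 0 of the 11 for H3K23su, beside 12.1%. The ETS match, the kind of site that ETV4 binds, was in 0 of the 153 and 0 of the 121 regions, beside 0.348% and 0.410%. With so few regions these counts are a description, and a match is not a bound site. Upstream of the start sites, in the same 200 bases as printed for RASGRP3, none of the 10 genes held any of the 6 motifs. Of 20090 promoters, 2.46% held the AP-1 and 4.16% the ETS match. The 6 shares ran from 1.63% (TEAD) to 5.00% (GATA). At shares this low, 10 promoters without a match say little.

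The rest of the pathway was counted in the same way, with 55 other genes grouped by role. For H3K23su, 36 were higher in both HCT15-FR libraries, 3 were lower and 16 overlapped, with a median ratio of 1.25, beside the 52.0% higher, 13.1% lower and median of 1.21 of all protein-coding genes. For H3K27ac, 28 were higher, 8 lower and 19 overlapping, beside 50.5% and 13.5%, with a median ratio of 1.14, which is that of all protein-coding genes. The 3 genes lower in H3K23su, all lower in H3K27ac too, were the exchange factor RASGRF2, the RAS inactivator RASA3, which lies on chromosome 13 like SPRY2, and the PEA3 factor ETV1. ETV5, a close relative of ETV4, had 3.77 and 2.38 kb of H3K23su in HCT15-Pa and 5.84 and 5.32 kb in HCT15-FR. ETV1, the third of this group, had 1.07 and 1.51 kb in HCT15-Pa and had no peak at the locus in either HCT15-FR library. Its H3K27ac covered 1.79 and 1.54 kb against 0.81 and 0.49 kb, so that ETV4 and ETV5 were higher in HCT15-FR in both marks and ETV1 lower in both.

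Among the 7 other phosphatase genes, 4 were higher in H3K23su and 0 lower, and 4 were higher in H3K27ac and 2 lower. DUSP9 had 1.31 and 0.55 kb of H3K23su in HCT15-Pa and 2.85 and 2.28 kb in HCT15-FR, and 1.48 and 1.37 kb of H3K27ac against 3.76 and 3.84 kb. The nuclear phosphatase DUSP2 went apart by mark, with H3K23su at 1.47 and 1.79 kb against 2.19 and 2.21 kb and H3K27ac at 5.25 and 5.00 kb against 3.24 and 2.95 kb. Of the 7 other exchange factors, 4 were higher and 1 lower in H3K23su, and 3 were higher and 1 lower in H3K27ac. RASGRF2 had 7.27 and 8.22 kb of H3K23su in HCT15-Pa and 2.45 and 3.39 kb in HCT15-FR, the lowest ratio of the exchange factors at 0.38. Of 10 kinase and scaffold genes, 8 were higher and 0 lower in H3K23su, and 5 were higher and 2 lower in H3K27ac. Of 14 inhibitors and ERK-response genes, 11 were higher and 1 lower in H3K23su, and 7 were higher and 1 lower in H3K27ac. The shares higher in H3K27ac, between 40.0% and 58.3% over the roles, lay around the 50.5% of all genes, and those in H3K23su, between 40.0% and 80.0%, on either side of 52.0%.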

How the data were processed

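The 8 CUT&Tag libraries were grouped by mark and line from their labels. Per the methods and the labels, reads were aligned by the authors to hg19 (Bowtie2) and filtered (SAMtools), and each library had its own MACS2 peak call, in broad mode for H3K27ac. A deposited list holds, for every peak, its coordinates and the −log10 of its P value, the unit used here, without read counts. Scores were ranked within their own list, because they depend on a depth that the lists do not give. Models of genes and their canonical TSSs were those of GENCODE 44 lifted to GRCh37, whose sequence gave the printed bases. For each gene, the covered length was summed within the gene body and 50 kb on either side. Peaks of the 4 libraries of a mark were merged where they overlapped by 1 bp or touched. The lines were set against each other with an exact permutation test over libraries (two-sided), and counts were set beside all protein-coding genes or all regions. The 10 genes, the 55 other pathway genes, the markers and the motifs were chosen with earlier results of these data known. At each locus, the named H3K23su regions are those in 1 line alone whose weaker peak ranked highest, and others were named after their values were seen. Printed sequences are those with an AP-1 or ETS match or with both marks in 1 line alone, outside UTRs, and the RASGRP3 promoter, which was added after its values were seen. Of the markers, 1 had no gene model used here. Alternatives were other windows, stronger peaks, equal list lengths, a common minimum score, other merging, scaling to list or chromosome totals, the pairing by number and leaving out each library. The work ran in Python 3.11.15 (scipy 1.17.1, pandas 2.3.3, numpy 2.4.6, matplotlib 3.10.9), and the region classes and covered lengths were checked on simulated lists.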

Additional observations from a re-analysis of the deposited data

How the results depend on the processing

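The summed covered length stayed higher in HCT15-FR under every alternative tried, between 14.84 and 31.81 kb for H3K23su and between 10.29 and 23.86 kb for H3K27ac. Scaling to the list total gave the lowest values, and equal list lengths gave 22.33 and 19.74 kb. With the replicate block the differences were 23.58 and 20.71 kb with p = 0.5 by an exact sign-flip test, the smallest it can give; libraries with the same number did not deviate together across genes (r = 0.02 and -0.01), so the number was not taken as a pairing. Of 220 alternative values for single genes, 204 kept their direction. The 16 that did not belong to RASGRP3, DUSP6 and SPRY2, the genes with the smallest differences. For H3K23su, RASGRP3 gave -0.04 kb without replicate 2 of HCT15-Pa, with up to 0.83 kb when other libraries were left out, and -0.08 kb scaled to the list total. DUSP6 gave -0.07 kb without replicate 2 of HCT15-Pa, -0.15 kb without replicate 2 of HCT15-FR and up to 0.55 kb without others, -0.56 kb scaled to the list and -0.61 kb scaled to the chromosome. SPRY2 gave 0.17 kb within 10 kb of the gene. For H3K27ac, RASGRP3 gave -0.05 and -0.03 kb scaled to the list and to the chromosome. DUSP6 gave -0.46 kb with the stronger 50% of each list, -0.27 kb without replicate 1 of HCT15-Pa and up to 1.29 kb without others, and -0.51 and -0.60 kb scaled to the list and to the chromosome. SPRY2 gave 0.16 kb both with the stronger 50% and within 10 kb, and 0.0022 kb scaled to the chromosome. The scaling to the chromosome was added after the data were examined. The causes were not tested.

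Counts of regions in 1 line alone depended on the number of libraries required and on the window, by construction. Leaving out 1 library gave 19 to 36 H3K23su and 20 to 30 H3K27ac regions of HCT15-FR alone, and 6 to 20 and 4 to 12 of HCT15-Pa alone. Without replicate 2 of HCT15-Pa the H3K23su counts were 20 and 20. Regions of HCT15-FR alone numbered 6 (H3K23su) and 3 (H3K27ac) within 10 kb, 17 (H3K23su) within 100 kb, 23 (H3K23su) where 50% of a region had to be covered, and 9 (H3K27ac) with the stronger 50% of each list. Regions of HCT15-Pa alone numbered 2 (H3K23su) and 0 (H3K27ac) within 10 kb and 5 (H3K27ac) within 100 kb. The depth behind the lists is unknown, which limits every statement on a missing peak.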
